A study of Mus musculus with 16 samples.

Results

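Integrins and laminins, the receptors and ligands that hold mammary epithelium to its basement membrane, were followed in RNA of whole mouse mammary gland at day 13 of pregnancy. The members were chosen by gene name alone. They are 14 integrin alpha genes with a numbered or E, L, V or X subunit, with 1 numbered alpha gene left out by the rule, the 8 integrin beta genes and the 11 laminin chain genes, or 33 of the 24187 rows of the deposited table. All 33 averaged 1 FPKM or more across the 7 libraries, the limit for testing. FPKM, reads per kilobase of gene after a scaling between libraries, allow levels of different genes to be set side by side. The members rested on 37 to 13076 recovered reads per library, lowest for Itgae and highest for Itgb1.

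The groups were 3 libraries of Socs2-Δs mice, called mutant here, and 4 libraries of wild-type C57BL/6 mice. The mutant line was made by CRISPR/Cas9 editing and is also labelled C57BL/6, and the wild-type mice were bought from a breeder, so breeding source and genotype cannot be told apart. Every animal was at the same stage, and the labels name no treatment, transgene or pooling, nor the bases that were edited. Titles and source names call the 3 libraries mutant while their genotype tag reads wild type; they were grouped by title. Whether each library came from its own animal is not stated, and p-values therefore reflect only library-to-library spread, which may be technical.

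An integrin is a pair of an alpha and a beta chain that spans the membrane and links matrix outside the cell to actin or keratin inside it. A laminin is a cross-shaped trimer of an alpha, a beta and a gamma chain and the main scaffold of basement membranes. In the mammary gland, contact of luminal cells with laminin through beta1 integrin is known to be needed for their response to prolactin, and the myoepithelial layer makes much of the laminin and carries alpha6beta4 integrin in hemidesmosomes.

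Some facts of the libraries bear on the values. Recovered totals ran from 21329162 to 24511894 reads. The scaling of the FPKM did not follow these totals. A read counted 1.25 times as much in wild-type replicate 4, with 21823806 reads, as in wild-type replicate 1, with 21329162 reads. Socs2, the edited gene, measured 17.1, 13.9 and 16.0 FPKM in mutant replicates 1 to 3, against 25.6, 22.1, 24.8 and 16.1 FPKM in wild-type replicates 1 to 4, and did not pass (log2 difference -0.46, SE 0.19, limma adjusted p = 0.267; exact two-sided permutation p = 0.0857 over 35 splits, where the smallest possible is 0.0286). Wild-type replicate 4 lay within the mutant range and the other 3 wild-type libraries above it. On the first principal component, wild-type replicates 3 and 4 lay at 57.1 and 77.9 and the other 5 libraries at -37.7 to -15.8. Neat1, a nuclear RNA, was at 11.4 and 14.8 FPKM in these 2 libraries and at 442 to 586 FPKM elsewhere. The median of 10 liver markers was 24.5 and 98.1 FPKM in them, against 0.393 to 0.828 FPKM in the other 5. That of 10 salivary gland markers was 32.7 and 9.45 FPKM, against 0.0593 to 0.497 FPKM. The part of such RNA in the levels of the members was not tested. Mutant replicate 2 and wild-type replicate 4 held far more lymphocyte RNA, with summed levels of 8 B cell markers of 182 and 246 FPKM against 2.36 to 4.99 FPKM in the other 5. In whole tissue, fewer cells of a type and less RNA per cell cannot be told apart. Defining markers of luminal, myoepithelial, fat, endothelial and stromal cells were above 0 in every library.

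None of the 33 members passed the test between genotypes, in a background where 0.0448% of the 13392 tested genes did (limma on log2(FPKM + 1), adjusted p under 0.05 by Benjamini and Hochberg). With p left unadjusted, 2 members were under 0.05, Lamb3 with a higher and Itgb3 with a lower mean in mutant glands, or 6.06% of members against a background of 18.1%. The groups did not overlap for 4 members, Lamb3 and Itga6 with every mutant library the higher and Itgb1 and Itgb3 with every mutant library the lower. That is 12.1% of members, against a background of 22.5%. The median log2 difference of the members was 0.14, with 19 estimates above 0 and 14 below, and that of all genes tested was -0.0044. Each log2 difference is mutant minus wild type on log2(FPKM + 1), a scale that understates changes of low genes.

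Without wild-type replicates 3 and 4, again none of the 33 passed, where 1.94% of all genes did, and 4 had an unadjusted p under 0.05 (12.1%, background 20.1%). The groups then did not overlap for 6 members (18.2%, background 39.9%). The median of the members was then -0.12, with 12 estimates above 0 and 21 below, against a median of 0.031 for all genes tested. The estimates of 9 members changed sign, or 27.3%, near the background of 26.5%. The smallest adjusted p of a member in that fit was 0.0766, for Itga7 (limma). With all 7 libraries and array weights, which let limma count each library by its fit, 3 members passed, where 10.2% of all genes did, namely Lamb3 with a log2 difference of 0.82, Itga7 with -0.96 and Itgb3 with -0.54 (limma adjusted p = 0.0285, 0.0415 and 0.0204).

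**Figure D1:**
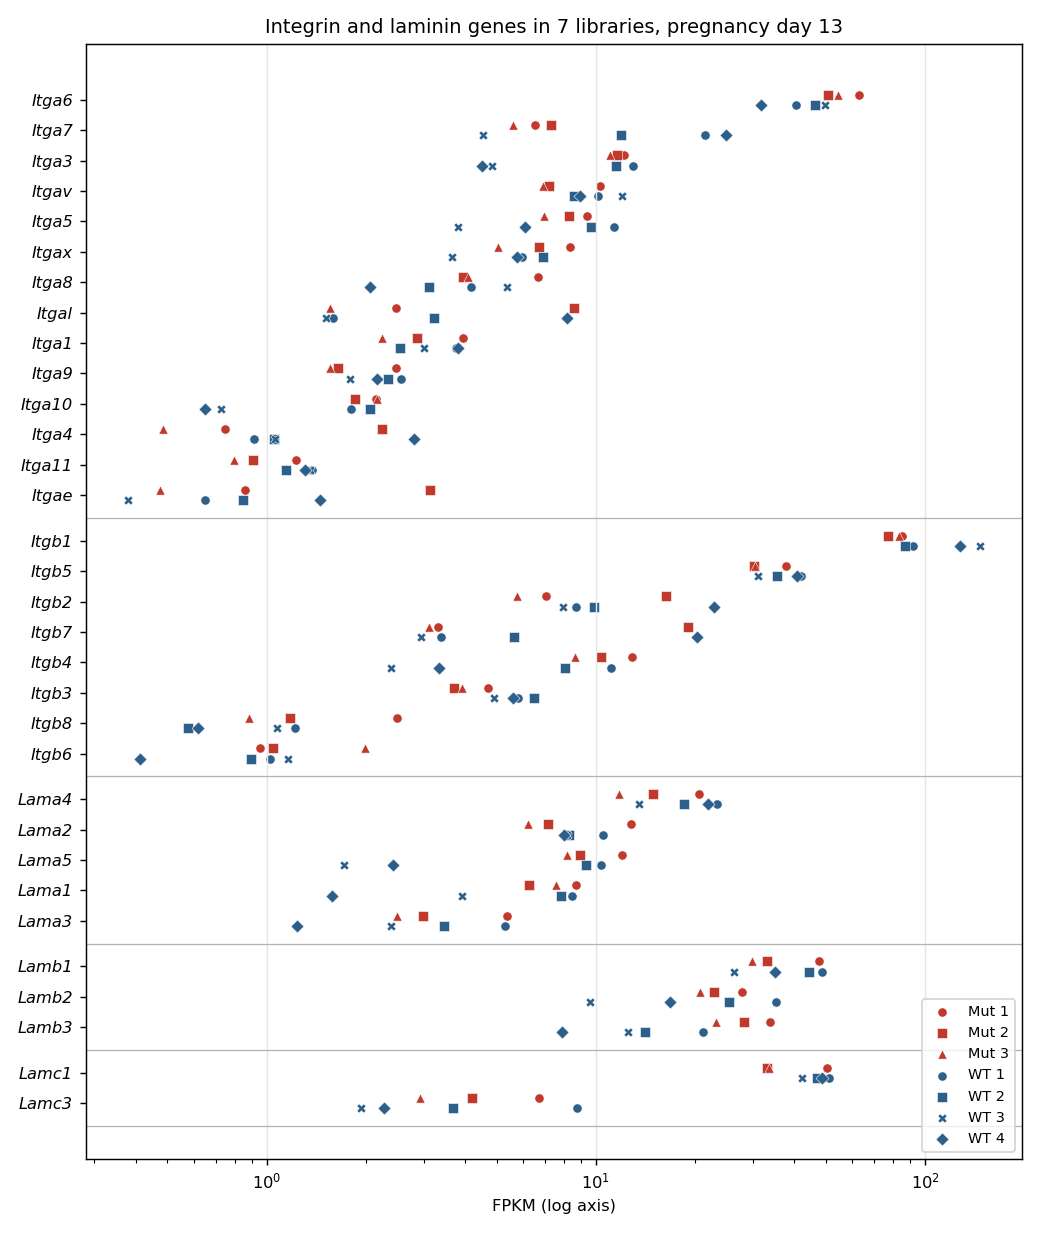
FPKM of 32 members in each library on a log axis, by chain class, with the 3 mutant libraries in red above the 4 wild-type libraries in blue. Itgb1 leads the integrin beta genes at 76.9 to 146 FPKM, and wild-type replicates 3 and 4 (cross and diamond) lie far left for Lama5 and Itgb4.

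Regulatory sequence was at hand for 20 of the 33 members, in a RefSeq table of promoters on the build GRCm38.p6 that holds 300 bases around each gene start. Motifs were searched on both strands. TTCNNNGAA, the element bound by STAT5, the factor named in the title of the series, was found in 2 of the 23 member promoters, those of Itga10 and Lamb2, or 8.70% against 8.30% of all 32851 promoters. GGGCGG, the box of SP factors, was in 43.5% against 35.7%, and AGGAAG, a core of ETS factors, in 47.8% against 35.4%. The 4 promoters printed here are those of Lamb3, the member with the smallest p, of Lamb2, which holds the STAT5 element, of Lama5, low in wild-type replicates 3 and 4, and of Itgb7, high in the 2 libraries with much lymphocyte RNA. Capitals mark the 3 motifs, which overlap nowhere in these 4. A match is a description and not a site in use. For Lamb3 the first of its 2 starts is shown.
Lamb3 (chr1:193301744-193302043, plus strand): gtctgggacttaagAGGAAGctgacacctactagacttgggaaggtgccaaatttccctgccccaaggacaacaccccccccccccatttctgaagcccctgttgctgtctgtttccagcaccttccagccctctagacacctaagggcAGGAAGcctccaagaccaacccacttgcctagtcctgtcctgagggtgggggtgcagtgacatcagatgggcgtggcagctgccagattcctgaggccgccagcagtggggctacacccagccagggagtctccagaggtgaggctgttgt
Lamb2 (chr9:108479612-108479911, plus strand): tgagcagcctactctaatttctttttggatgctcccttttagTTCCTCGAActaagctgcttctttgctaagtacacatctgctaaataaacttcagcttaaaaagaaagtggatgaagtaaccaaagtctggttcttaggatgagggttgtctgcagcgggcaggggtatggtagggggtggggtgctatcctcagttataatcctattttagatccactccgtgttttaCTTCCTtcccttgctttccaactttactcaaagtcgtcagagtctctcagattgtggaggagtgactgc
Lama5 (chr2:180225810-180226109, minus strand): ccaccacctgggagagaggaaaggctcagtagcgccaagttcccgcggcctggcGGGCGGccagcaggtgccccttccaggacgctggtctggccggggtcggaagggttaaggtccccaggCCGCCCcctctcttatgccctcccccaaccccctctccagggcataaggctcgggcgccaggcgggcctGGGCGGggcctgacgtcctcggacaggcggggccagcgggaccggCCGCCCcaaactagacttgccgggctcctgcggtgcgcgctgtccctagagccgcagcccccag
Itgb7 (chr15:102231886-102232185, minus strand): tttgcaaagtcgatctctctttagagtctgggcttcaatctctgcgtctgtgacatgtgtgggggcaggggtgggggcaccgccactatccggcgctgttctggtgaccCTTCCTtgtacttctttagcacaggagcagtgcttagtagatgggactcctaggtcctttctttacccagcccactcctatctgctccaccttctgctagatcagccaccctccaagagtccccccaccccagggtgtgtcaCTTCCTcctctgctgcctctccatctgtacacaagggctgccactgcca

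None of the 3 laminin beta chains passed. Lamb3, the beta chain of laminin-332, which anchors hemidesmosomes, measured 33.7, 28.2 and 23.2 FPKM in mutant replicates 1 to 3, against 21.1, 14.1, 12.5 and 7.88 FPKM in wild-type replicates 1 to 4. Every mutant library lay above every wild-type one. The means were 28.4 ± 5.24 FPKM in mutant glands and 13.9 ± 5.48 FPKM in wild-type glands (SD, n = 3 and 4), a ratio of 2.04. The log2 difference of 1.04 (SE 0.30) did not pass (limma adjusted p = 0.179). Against wild-type replicates 1 and 2 alone it was 0.67 (limma adjusted p = 0.180). Its promoter, printed above, held AGGAAG at 2 places and neither other motif. Lamb3 overlaps Gm51741 on the genome, so reads in the shared stretch may be mixed. The 9 markers of secretory alveolar cells summed to 80878 to 107692 FPKM in mutant glands and to 4085 to 46023 FPKM in wild-type glands. Of the 9, 8 were higher in every mutant library, against a background of 12.5% of all genes. None of the 9 passed with all 7 libraries, and 5 did without wild-type replicates 3 and 4 (background 1.26%). The 11 basal and myoepithelial markers summed to 1176 to 1407 FPKM in mutant glands and to 758 to 1413 FPKM in wild-type glands. Their part in the level of Lamb3 was not tested.

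Lamb1, the beta chain of most embryonic and many adult laminins, was the most abundant of its class, at 47.7, 33.0 and 29.8 FPKM in mutant replicates 1 to 3, against 48.5, 44.2, 26.2 and 35.01 FPKM in wild-type replicates 1 to 4. Its groups overlapped widely (log2 difference -0.053, SE 0.26, limma adjusted p = 0.917). Lamb2, a beta chain of vessel, muscle and kidney basement membranes, measured 27.7, 22.8 and 20.7 FPKM in mutant replicates 1 to 3, against 35.2, 25.3, 9.58 and 16.7 FPKM in wild-type replicates 1 to 4. For Lamb2 wild-type replicates 3 and 4 were the 2 lowest libraries, and the estimate was 0.26 with all libraries and -0.33 without replicates 3 and 4.

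As a share of the summed FPKM of the 3 laminin beta genes, Lamb3 made up 30.9, 33.6 and 31.5% in mutant replicates 1 to 3, against 20.1, 16.8, 25.9 and 13.2% in wild-type replicates 1 to 4. Lamb1 made up 43.7, 39.3 and 40.5% in the mutant libraries, against 46.3, 52.9, 54.3 and 58.7% in the wild-type ones. Neither share overlapped between groups, and a share is free of the scaling between libraries. This was not particular to the beta class. The share of Lama4 was 32.5 to 37.1% in mutant and 39.0 to 62.2% in wild-type libraries. That of Lama5 was 20.2 to 22.6% and 5.80 to 19.7%. Shares of Itga9 and Itga11 were also lower in every mutant library. The leading shares of the other classes, those of Itga6, Itgb1 and Lamc1, overlapped. No background is given for shares. Shares within a class depend on each other, so a higher share of Lamb3 leaves less for Lamb1, whose FPKM overlapped between groups. Lama3, the alpha partner of Lamb3 in laminin-332, was at 0.159, 0.106 and 0.107 times the level of Lamb3 in mutant replicates 1 to 3, against 0.251, 0.246, 0.191 and 0.157 times in wild-type replicates 1 to 4. This ratio overlapped, since mutant replicate 1 lay just above wild-type replicate 4. These shares and this ratio were not tested.

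**Figure D2:**
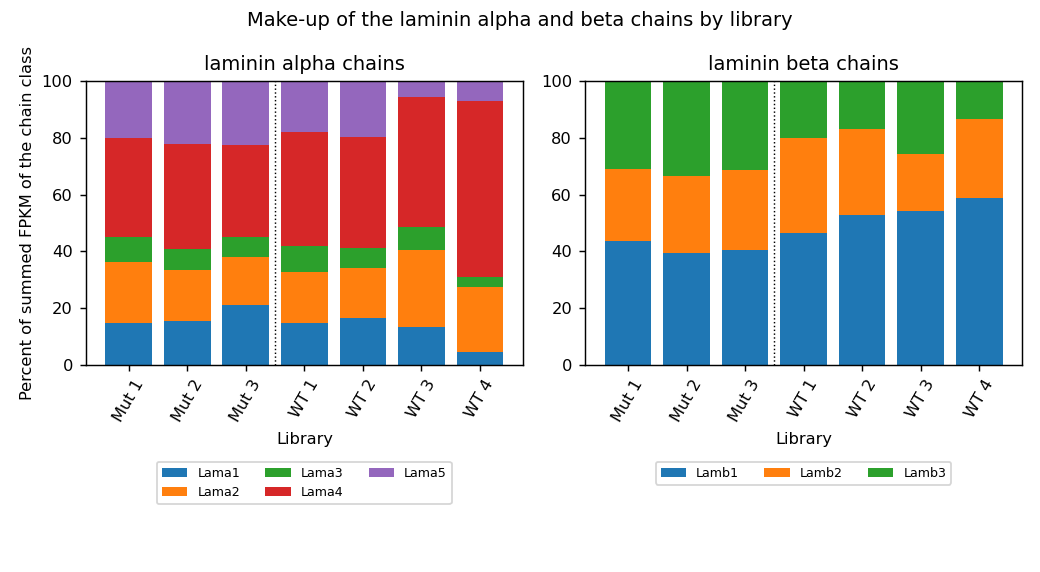
Each laminin alpha and beta gene as a percent of the summed FPKM of its chain class, 1 bar per library, mutant libraries left of the dotted line and wild-type libraries right of it. Lamb3 takes 30.9 to 33.6% of the beta chains in mutant libraries and 13.2 to 25.9% in wild-type ones, and Lama5 makes up 5.80 and 6.90% in wild-type replicates 3 and 4.

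The gamma chain genes Lamc1 and Lamc3 neither passed nor separated the groups. Lamc1, the gamma chain of most laminins, measured 50.4, 33.1 and 33.6 FPKM in mutant replicates 1 to 3, against 51.1, 46.8, 42.3 and 48.6 FPKM in wild-type replicates 1 to 4 (log2 difference -0.29, SE 0.19, limma adjusted p = 0.409). Mutant replicate 1 lay within the wild-type range and the other 2 mutant libraries below it. Lamc3, which is found in nerve, eye and vessel, measured 6.72, 4.19 and 2.93 FPKM in mutant replicates 1 to 3, against 8.74, 3.69, 1.93 and 2.27 FPKM in wild-type replicates 1 to 4. Its groups overlapped, with the highest library in wild type (log2 difference 0.24, SE 0.43, limma adjusted p = 0.762).

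None of the 5 laminin alpha chains passed with all 7 libraries, and their adjusted p ran from 0.369 to 0.911 (limma). Lama4, the alpha chain of endothelium, fat and muscle, led the class at 20.5, 14.9 and 11.8 FPKM in mutant replicates 1 to 3, against 23.3, 18.5, 13.6 and 21.8 FPKM in wild-type replicates 1 to 4. Its groups overlapped (log2 difference -0.28, SE 0.25). Lama2, the chain of muscle and nerve sheaths, measured 12.8, 7.16 and 6.21 FPKM in mutant replicates 1 to 3, against 10.47, 8.28, 8.15 and 8.01 FPKM in wild-type replicates 1 to 4. Mutant replicate 1 was the highest and the other 2 mutant libraries the lowest of all 7.

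Lama5, the chain of mature epithelial and vascular basement membranes, measured 12.03, 8.91 and 8.19 FPKM in mutant replicates 1 to 3, against 10.4, 9.34, 1.72 and 2.42 FPKM in wild-type replicates 1 to 4. Wild-type replicates 1 and 2 lay within the mutant range, and replicates 3 and 4 far below it. The log2 difference was 0.88 (SE 0.52) with all libraries and -0.034 without these 2. Lama1, an alpha chain prominent in early basement membranes and made by myoepithelial cells, measured 8.68, 6.26 and 7.57 FPKM in mutant replicates 1 to 3, against 8.46, 7.86, 3.93 and 1.58 FPKM in wild-type replicates 1 to 4. Its estimate was 0.56 with all libraries and -0.12 without replicates 3 and 4. Without them all 5 alpha chains had estimates below 0, none of them past the threshold. Lama3, the alpha chain of laminin-332, ranged from 2.48 to 5.37 FPKM in mutant glands and from 1.24 to 5.29 FPKM in wild-type glands.

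Wild-type replicates 3 and 4 were the 2 lowest of the 7 libraries for 10 of the 33 members, or 30.3%, near the background of 25.2%. The 10 were Itga3, Itga5, Itga10, Itgb4, Lama5, Lama1, Lama3, Lamb2, Lamb3 and Lamc3. Replicates 3 and 4 were the 2 highest for 1 member, Itgb1 (3.03%, background 25.1%). The luminal markers summed to 1871 and 812 FPKM in these 2 libraries, and the basal and myoepithelial markers to 1413 and 758 FPKM. In the other wild-type libraries the luminal sums were 1276 and 1519 FPKM and the basal sums 1257 and 1392 FPKM. The part of RNA quality, for which no measure is given here, and of cell content in these low values was not tested.

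**Figure D3:**
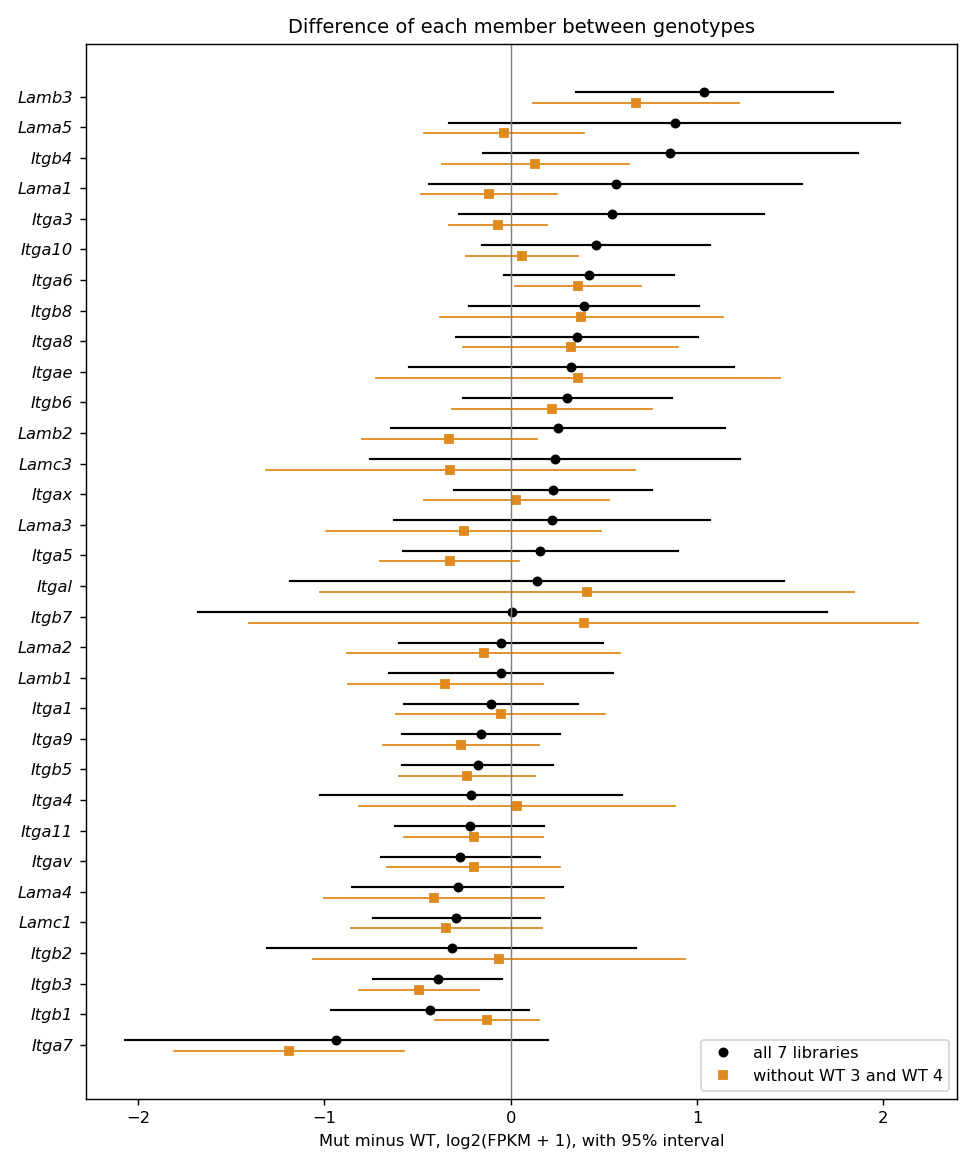
Mutant minus wild-type difference of 32 members on log2(FPKM + 1) with its 95% interval, for all 7 libraries (black) and without wild-type replicates 3 and 4 (orange). The black point of Lama5 lies at 0.88 and its orange point at -0.034, while Lamb3 keeps an estimate above 0 in both, at 1.04 and 0.67.

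Among laminin-binding integrins, Itga6 was the leading alpha gene. Its product pairs with beta1 or, in hemidesmosomes, with beta4, and marks basal and progenitor cells. Itga6 measured 62.8, 50.7 and 54.5 FPKM in mutant replicates 1 to 3, against 40.4, 46.2, 49.7 and 31.7 FPKM in wild-type replicates 1 to 4. The groups did not overlap, though mutant replicate 2 and wild-type replicate 3 differed by little. The means were 56.0 ± 6.19 FPKM in mutant glands and 42.0 ± 7.88 FPKM in wild-type glands (SD, n = 3 and 4), and the log2 difference of 0.42 (SE 0.20) did not pass (limma adjusted p = 0.296). It was 0.36 without wild-type replicates 3 and 4 (limma adjusted p = 0.222).

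Itgb4, the beta chain of hemidesmosomes with a long tail that binds keratin linkers, measured 12.8, 10.4 and 8.61 FPKM in mutant replicates 1 to 3, against 11.1, 8.07, 2.38 and 3.35 FPKM in wild-type replicates 1 to 4. Wild-type replicate 1 lay within the mutant range, replicate 2 just under it and replicates 3 and 4 far below. The log2 difference of 0.86 (SE 0.44, limma adjusted p = 0.321) was 0.13 without them. Itgb4 overlaps Galk1 on the genome, and with no stated use of strand in the counting, reads in the shared stretch may be mixed. Itga3, the alpha chain that binds laminin-332, measured 12.1, 11.6 and 11.02 FPKM in mutant replicates 1 to 3, against 13.0, 11.5, 4.82 and 4.496 FPKM in wild-type replicates 1 to 4. Its estimate was 0.54 (SE 0.35) with all libraries and -0.068 without replicates 3 and 4.

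Itga7, the laminin receptor chain of muscle and of cells around vessels, had the lowest estimate of all members. It measured 6.53, 7.32 and 5.61 FPKM in mutant replicates 1 to 3, against 21.4, 11.9, 4.53 and 24.8 FPKM in wild-type replicates 1 to 4. Wild-type replicates 1, 2 and 4 lay above every mutant library and replicate 3 below them. The log2 difference was -0.93 (SE 0.49, limma adjusted p = 0.332) with all libraries and -1.19 without wild-type replicates 3 and 4 (limma adjusted p = 0.0766). The 8 markers of pericytes and smooth muscle summed to 75.5 to 112 FPKM in mutant glands and to 163, 99.7, 108 and 155 FPKM in wild-type replicates 1 to 4, and none of the 8 passed. Skeletal muscle markers summed to 45.1 to 183 FPKM in mutant glands and to 262, 51.4, 1020.2 and 212 FPKM in wild-type replicates 1 to 4. The highest of these sums was in wild-type replicate 3. The part of these pericyte and muscle markers in the level of Itga7 was not tested. Itga7 also overlaps Mettl7b.

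Itgb1, the partner of most matrix-binding alpha chains, was the most abundant member. It measured 85.2, 76.9 and 83.4 FPKM in mutant replicates 1 to 3, against 91.8, 86.7, 146 and 128 FPKM in wild-type replicates 1 to 4. Every mutant library lay below every wild-type one, by a small margin for wild-type replicate 2. The log2 difference of -0.43 (SE 0.23, limma adjusted p = 0.336) was -0.13 without wild-type replicates 3 and 4, its 2 highest libraries. The level of Itga6 was 0.738, 0.660 and 0.654 times that of Itgb1 in mutant replicates 1 to 3, against 0.440, 0.533, 0.340 and 0.248 times in wild-type replicates 1 to 4. This ratio could not overlap between groups, since Itga6 was higher and Itgb1 lower in every mutant library, and it was not tested.

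Receptors for ligands with an RGD sequence, such as fibronectin, vitronectin and osteopontin, held the other member with a small unadjusted p. Itgb3, the beta chain that pairs with alphaV, measured 4.69, 3.70 and 3.92 FPKM in mutant replicates 1 to 3, against 5.80, 6.50, 4.90 and 5.59 FPKM in wild-type replicates 1 to 4. The groups did not overlap, and mutant replicate 1 and wild-type replicate 3 were close. The means were 4.11 ± 0.520 FPKM in mutant glands and 5.70 ± 0.661 FPKM in wild-type glands (SD, n = 3 and 4), with a log2 difference of -0.39 (SE 0.15) that did not pass (limma adjusted p = 0.246). Without wild-type replicates 3 and 4 it was -0.49 (limma adjusted p = 0.121).

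Itgb5, another partner of alphaV and the next most abundant beta gene, measured 37.8, 30.3 and 30.3 FPKM in mutant replicates 1 to 3, against 41.9, 35.5, 30.9 and 40.7 FPKM in wild-type replicates 1 to 4 (log2 difference -0.18, SE 0.18, limma adjusted p = 0.566). Its groups overlapped through mutant replicate 1. Itgav, the alphaV chain itself, ranged from 6.90 to 10.3 FPKM in mutant glands and from 8.57 to 12.01 FPKM in wild-type glands. Itga5, the fibronectin receptor chain, ranged from 6.94 to 9.37 FPKM in mutant glands and from 3.82 to 11.3 FPKM in wild-type glands, with an estimate of 0.16 that was -0.33 without wild-type replicates 3 and 4. Itga8, the receptor chain for nephronectin, ranged from 3.94 to 6.67 FPKM in mutant glands and from 2.06 to 5.36 FPKM in wild-type glands. Itgb6 and Itgb8, beta chains that activate latent TGF-beta, averaged 1.33 ± 0.571 and 1.52 ± 0.859 FPKM in mutant glands and 0.872 ± 0.324 and 0.872 ± 0.322 FPKM in wild-type glands (SD, n = 3 and 4). Their estimates were 0.30 and 0.39, with limma adjusted p of 0.482 and 0.418. The estimate of Itgb6 was 0.11 without mutant replicate 3, its highest library, and 0.18 without wild-type replicate 4, its lowest. That of Itgb8 was 0.13 without mutant replicate 1, its highest library.

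Collagen receptor chains were low and did not separate the groups. Itga1 averaged 3.02 ± 0.870 FPKM in mutant glands and 3.28 ± 0.609 FPKM in wild-type glands. Itga11, a chain of fibroblasts, averaged 0.977 ± 0.224 FPKM in mutant glands and 1.30 ± 0.103 FPKM in wild-type glands. Itga10, a chain known from cartilage, averaged 2.06 ± 0.1697 FPKM in mutant glands and 1.31 ± 0.725 FPKM in wild-type glands (SD, n = 3 and 4 throughout). Itga9, a receptor chain for tenascin-C and of lymphatic vessels, averaged 1.89 ± 0.497 FPKM in mutant glands and 2.21 ± 0.325 FPKM in wild-type glands. Adjusted p of the 4 ran from 0.361 to 0.781 (limma). Itga1 overlaps Pelo on the genome, so reads of the pair may be mixed.

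Several integrins of leukocytes were high in 1 library of each genotype. Mutant replicate 2 and wild-type replicate 4 were the 2 highest libraries for 5 members, Itgal, Itga4, Itgae, Itgb2 and Itgb7 (15.2%, background 3.73%). Itgb7, the beta chain of gut-homing lymphocytes, measured 3.31, 19.0 and 3.12 FPKM in mutant replicates 1 to 3, against 3.37, 5.65, 2.95 and 20.3 FPKM in wild-type replicates 1 to 4. Itgal, the alpha chain of LFA-1 on lymphocytes, measured 2.47, 8.58 and 1.56 FPKM in mutant replicates 1 to 3, against 1.59, 3.23, 1.51 and 8.19 FPKM in wild-type replicates 1 to 4. For both genes the other 5 libraries lay well below these 2.

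Itgb2, the beta chain shared by leukocyte integrins, measured 7.06, 16.3 and 5.76 FPKM in mutant replicates 1 to 3, against 8.69, 9.83, 7.92 and 22.8 FPKM in wild-type replicates 1 to 4. Itga4, the chain that binds VCAM-1, measured 0.747, 2.24 and 0.485 FPKM in mutant replicates 1 to 3, against 0.918, 1.05, 1.06 and 2.80 FPKM in wild-type replicates 1 to 4. Itgae, the chain of T cells and dendritic cells within epithelium, measured 0.859, 3.13 and 0.476 FPKM in mutant replicates 1 to 3, against 0.652, 0.847, 0.380 and 1.45 FPKM in wild-type replicates 1 to 4. The same 2 libraries were the highest for all 10 T and NK cell markers and all 8 B cell markers. The T and NK cell markers summed to 138 and 174 FPKM there, against 13.1 to 34.4 FPKM in the other 5. The part of lymphocyte content in these integrin levels was not tested. Itgae overlaps Haspin and Itga4 overlaps Cerkl on the genome.

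Limma adjusted p of these 5 members ran from 0.621 for Itgae to 0.996 for Itgb7, and with standard errors of 0.35 to 0.73 their 95% intervals were wide. That of Itgb7 ran from -1.68 to 1.70, which includes sizeable differences in either direction. Without mutant replicate 2 and wild-type replicate 4, a comparison chosen after the values were seen, the estimates were -0.21 for Itgb7, -0.019 for Itgal, -0.41 for Itgb2, -0.32 for Itga4 and 0.037 for Itgae. None of the 33 members passed in it. Itgax, the alpha chain of dendritic cells and some macrophages, did not share the pattern, at 8.32, 6.71 and 5.03 FPKM in mutant replicates 1 to 3 and 5.94, 6.91, 3.66 and 5.77 FPKM in wild-type replicates 1 to 4. Itgam, the alpha chain of macrophages and neutrophils and not a member, was at 2.89 ± 0.514 FPKM in mutant glands and 5.87 ± 1.53 FPKM in wild-type glands (SD, n = 3 and 4) without passing (limma adjusted p = 0.165). Of 9 macrophage markers, 8 were lower in every mutant library, against a background of 10.0% of all genes, and none of the 9 passed. The 9 summed to 386 to 484 FPKM in mutant glands and to 563 to 1064 FPKM in wild-type glands. Their part in the level of Itgam was not tested.

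**Figure D4:**
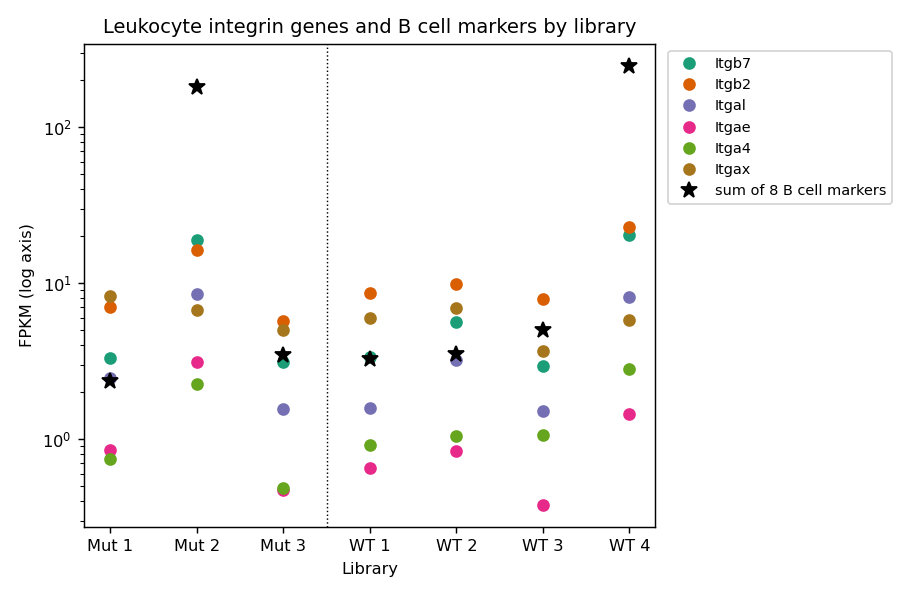
FPKM of 6 leukocyte integrin genes and the summed FPKM of 8 B cell markers (stars) in each library on a log axis, mutant libraries left of the dotted line. Mutant replicate 2 and wild-type replicate 4 are the highest for the B cell sum, at 182 and 246 FPKM, and for every integrin shown except Itgax.

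Other genes of the pathway were counted from 5 lists, with 89 tested genes, of which none passed with all 7 libraries. Before adjustment 6 of the 89 had p under 0.05 with a higher mean in mutant glands and 11 with a lower one (backgrounds 9.12% and 8.98%). Of the 22 tested ligands of integrins other than laminins, 3 rose against wild-type replicates 1 and 2 alone and none fell (backgrounds 1.26% and 0.68%). Npnt, which encodes nephronectin, measured 8.51, 6.58 and 6.50 FPKM in mutant replicates 1 to 3, against 2.83, 2.65, 3.90 and 1.52 FPKM in wild-type replicates 1 to 4. Its log2 difference was 1.17 (SE 0.24, limma adjusted p = 0.124), and 1.13 without wild-type replicates 3 and 4 (limma adjusted p = 0.0360). Tnc, tenascin-C, measured 11.9, 11.6 and 12.4 FPKM in mutant replicates 1 to 3, against 5.15, 5.94, 4.20 and 2.36 FPKM in wild-type replicates 1 to 4.

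For Tnc the log2 difference was 1.31 (SE 0.25, limma adjusted p = 0.116), and 0.99 without wild-type replicates 3 and 4 (limma adjusted p = 0.0248). Spp1, osteopontin, which is also a milk protein, measured 172, 484 and 357 FPKM in mutant replicates 1 to 3, against 12.1, 12.3, 55.4 and 8.19 FPKM in wild-type replicates 1 to 4. For each of the 3 genes every mutant library lay above every wild-type one. Over all 22 ligands the groups did not overlap for 4 with mutant glands higher and for 1 with mutant glands lower. The backgrounds were 12.5% and 10.0% of all genes. The secretory alveolar markers, summed above, were also higher in the mutant libraries, and their part in these levels was not tested. Thbs2, a thrombospondin of stroma, lay on the other side, at 8.96 ± 0.848 FPKM in mutant glands and 23.3 ± 12.3 FPKM in wild-type glands (SD, n = 3 and 4; limma adjusted p = 0.204). The median of the 22 ligands was -0.15, with 9 estimates above 0 and 13 below.

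Of the 15 tested partners of laminin in basement membranes, 10 had estimates below 0, with a median of -0.073, and -0.42 without wild-type replicates 3 and 4. Nid1, nidogen, which bridges laminin and type IV collagen, measured 65.5, 44.5 and 46.1 FPKM in mutant replicates 1 to 3, against 92.9, 67.7, 84.5 and 142 FPKM in wild-type replicates 1 to 4 (log2 difference -0.85, SE 0.28, limma adjusted p = 0.210). Sparc and Fbln1 also had every mutant library below every wild-type one, which made 3 of the 15, with 0 on the other side. The backgrounds were 10.0% and 12.5% of all genes. Sparc averaged 724 ± 86.3 FPKM in mutant glands and 1353 ± 465 FPKM in wild-type glands, and Fbln1 averaged 3.42 ± 0.247 FPKM in mutant glands and 8.19 ± 4.11 FPKM in wild-type glands (SD, n = 3 and 4). Agrn, agrin, stood at 9.14 and 9.67 FPKM in the 2 wild-type libraries that stood apart, and at 26.5 to 38.1 FPKM in the other 5. Fibroblast markers summed to 1277 to 1819 FPKM in mutant glands and to 2073 to 2913 FPKM in wild-type glands. Of these 10 markers, 6 were lower in every mutant library (background 10.0%), and none of the 10 passed. Adipocyte markers summed to 3534 to 6725 FPKM in mutant glands and to 10808 to 23083 FPKM in wild-type glands. Their part in these levels was not tested.

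The 18 other laminin receptors and hemidesmosome genes had 8 estimates above 0 and 10 below, with a median of -0.077. Every mutant library lay below every wild-type one for 5 of them and above for 1, Pomgnt1, against backgrounds of 10.0% and 12.5% of all genes. The 4 with the smallest p were all among the lower. Sdc1, a syndecan of epithelium, measured 27.1, 21.1 and 24.2 FPKM in mutant replicates 1 to 3, against 33.6, 33.5, 35.2 and 33.6 FPKM in wild-type replicates 1 to 4 (log2 difference -0.48, SE 0.15, limma adjusted p = 0.187). Cd151, a tetraspanin that binds alpha3 and alpha6 integrins, averaged 75.4 ± 3.49 FPKM in mutant glands and 135 ± 62.5 FPKM in wild-type glands. The sarcoglycan genes Sgcd and Sgce, of the dystroglycan complex, averaged 2.58 ± 0.440 and 9.47 ± 0.706 FPKM in mutant glands and 9.21 ± 8.06 and 23.8 ± 12.2 FPKM in wild-type glands (SD, n = 3 and 4). Adjusted p of the 4 ran from 0.175 to 0.285 (limma).

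The 32 integrin adaptor and signalling genes were evenly split, with 16 estimates above 0 and 16 below and a median of 0.00012. Src, the kinase at focal adhesions, measured 28.3, 25.97 and 28.5 FPKM in mutant replicates 1 to 3, against 19.95, 20.7, 10.9 and 10.3 FPKM in wild-type replicates 1 to 4 (log2 difference 0.86, SE 0.27, limma adjusted p = 0.198). Tns3, a tensin, averaged 15.8 ± 2.502 FPKM in mutant glands and 10.54 ± 1.19 FPKM in wild-type glands, with no overlap of the groups. Itgb1bp1, which encodes ICAP1, a protein on the tail of beta1 integrin, averaged 10.6 ± 1.26 FPKM in mutant glands and 21.3 ± 8.70 FPKM in wild-type glands. Kank2, a talin-binding protein, averaged 9.37 ± 1.51 FPKM in mutant glands and 13.1 ± 1.65 FPKM in wild-type glands (SD, n = 3 and 4 throughout). Every mutant library lay below every wild-type one for Itgb1bp1 and Kank2, and the adjusted p of the 3 genes ran from 0.186 to 0.234 (limma). Over all 32 genes the groups did not overlap for 5 with mutant glands higher and for 3 with mutant glands lower. The backgrounds were 12.5% and 10.0% of all genes.

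**Figure D5:**
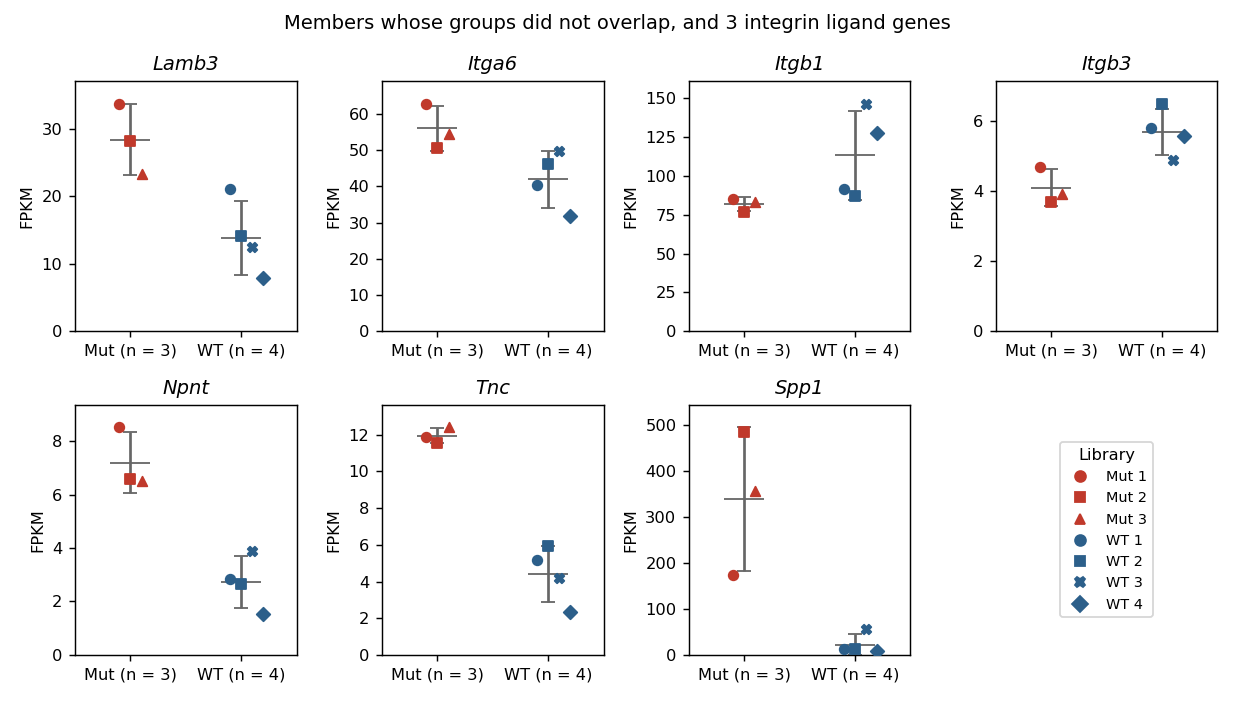
FPKM by genotype for the 4 members whose groups did not overlap and for 3 ligand genes of other integrins, 1 point per library with the mean and SD in grey and an axis that includes 0. Mutant libraries reach 6.50 to 8.51 FPKM for Npnt and 172 to 484 FPKM for Spp1, and wild-type libraries 1.52 to 3.90 FPKM and 8.19 to 55.4 FPKM.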

How the data were processed

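Messenger RNA of whole mammary gland was measured in 3 mutant and 4 wild-type libraries; the other 9 samples of the series (ChIP-seq and DNase-seq) were not analysed here. Libraries were made from poly(A) RNA with a TruSeq RNA kit, per the labels' protocols. The authors deposited FPKM per gene. CASAVA, STAR, Bowtie2 and DESeq2 and the build mm9 appear in the submitters' processing notes, with no roles; no annotation or use of strand was found there or in the labels.

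Whole reads were recovered from the steps between low FPKM for 21044 of 21044 rows above 0 (tolerance 0.02 of a read), up to a factor common to a gene. Groups were compared with limma 3.58.1 under R 4.3.3 (empirical Bayes with a mean-variance trend, no covariate, two-sided) on log2(FPKM + 1). The fit ran over the 13392 genes averaging 1 FPKM or more, adjusted by Benjamini and Hochberg over all of them. It was tested on simulated data with independent noise, which lack the pattern shared by wild-type replicates 3 and 4. Of the members, 1 is counted but not reported here, and the others are named. The rule gave values in every library to the 3 most abundant members of each chain class, to members with an unadjusted p under 0.05 or past the threshold without wild-type replicates 3 and 4, and named up to 4 genes of smallest p per pathway list; Lama1, Itgb4 and the leukocyte integrins were given in full after their values were seen. The members, lists, rules and most alternatives were chosen with earlier results of these data known. Alternatives were other libraries, filters, scalings, a pseudocount of 0.1, weights and a replicate block.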

Additional observations from a re-analysis of the deposited data

Results flagged for a closer look

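Among the 4 wild-type libraries, 1 library lay far from the other 3 for 6 of the 52 genes examined, by Dixon's test at the 95% level, which chance meets in about 1 of 20 groups. Wild-type replicate 4 was the far library for 3 leukocyte integrins, at 2.80 FPKM for Itga4, 22.8 FPKM for Itgb2 and 20.3 FPKM for Itgb7. The 8 B cell markers summed to 246 FPKM in that library, and their part in these values was not tested. Wild-type replicate 1 was the highest for Lama2, at 10.47 FPKM, against 8.01 to 8.28 FPKM in the other 3. Wild-type replicate 3 was the highest for Spp1, at 55.4 FPKM against 8.19 to 12.3 FPKM in the other 3. It was also the highest for Sdc1, at 35.2 FPKM against 33.5 to 33.6 FPKM. Dixon's test sets the gap against the range of the 4 libraries, so a small gap such as that of Sdc1 can be flagged.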

How the results depend on the processing

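The count of 0 members past the threshold held under each alternative except array weights. That setting called 3 members, Itga7 (-0.96), Itgb3 (-0.54) and Lamb3 (0.82). It gave wild-type replicates 3 and 4 weights of 0.172 and 0.173 and mutant replicate 2 the largest weight, 4.76. The other libraries had weights of 1.06 to 2.92. Over all genes the count of 6 was 260 without wild-type replicates 3 and 4, 284 with the filter also set on the 5 libraries left, 0 without mutant replicate 2 and wild-type replicate 4, 1 with a pseudocount of 0.1, 1 with no filter, 0 with a mean of at least 5 FPKM, 28 with quantile normalization, 0 with the replicate block and 1371 with array weights, and 0 to 31 without single libraries. Of the pathway genes 0 passed, but 3 without wild-type replicates 3 and 4 under either filter, 1 with quantile normalization, 7 with array weights, and 0 to 1 without single libraries. Socs2 passed with array weights alone (-0.60, adjusted p = 0.0201).

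Signs that changed belonged to estimates that never passed. Without wild-type replicates 3 and 4, under either filter, they were Itga3 (-0.068), Itga5 (-0.33), Itga4 (0.036), Lama5 (-0.034), Lama1 (-0.12), Lama3 (-0.25), Lamb2 (-0.33), Lamc3 (-0.32) and Agrn (-0.11). With array weights they were Itga5 (-0.21), Itga4 (0.31), Itgb2 (0.28), Lama1 (-0.10), Lama3 (-0.16), Lamb2 (-0.19), Lamc3 (-0.089) and Agrn (-0.075). The replicate block turned Itga4 (0.018), Itgb2 (0.00382) and Lama3 (-0.035), a pseudocount of 0.1 turned Itgb7 (-0.00138), and quantile normalization turned Lamb1 (0.030). Without mutant replicate 2 and wild-type replicate 4, Itgal (-0.019), Itgb7 (-0.21) and Lama2 (0.00914) turned. Over single left-out libraries the ranges were -0.27 to 0.041 for Itga1, -0.55 to 0.018 for Itga4, -0.10 to 0.36 for Itga5, -0.11 to 0.63 for Itgae, -0.42 to 0.54 for Itgal, -0.73 to 0.00382 for Itgb2, -0.74 to 0.54 for Itgb7, -0.34 to 0.13 for Lama2, -0.036 to 0.46 for Lama3, -0.25 to 0.081 for Lamb1, -0.063 to 0.53 for Lamb2 and -0.019 to 0.60 for Lamc3. Lamb3 stayed between 0.67 and 1.25 and Itga6 between 0.28 and 0.55 over all alternatives run.

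Same-numbered libraries correlated by 0.347, 0.0554 and 0.191 in their deviations, so the numbers were not taken as pairs, and the block could be fitted for replicates 1 to 3 only. The causes of these changes were not tested. Groups of 3 and 4 libraries limit the precision, and wild-type replicates 3 and 4 hold no mutant library, so no comparison within them could be made.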
